A study of Mus musculus with 24 samples.

Results

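Of the 55487 genes counted, 9 that mark satellite cells or drive the myogenic programme (Pax7, Calcr, Cdh15, Eya1, Myf5, Myod1, Myog, Myf6 and Mymk) were examined in mouse tibialis anterior (TA) muscle. They were taken as a list of names, matched to the counted identifiers through GENCODE, and not by a cut on the values. The list was, however, chosen with earlier results of these data known. TA muscle came from 24 male C57BL/6J mice aged 5 to 7 weeks, divided into 4 groups of 6 that were sedentary or fatigued, each with or without PBMT. Photobiomodulation therapy (PBMT) was a 20 min exposure of the shaved lower limbs to 830 nm light-emitting diodes under anesthesia, at 25 mW/cm² and 30 J/cm², and control mice were shaved and anesthetized for as long without light. Fatigued mice ran on an inclined treadmill to exhaustion and were killed at once, sedentary mice had no such run, and the left TA was dissected 24 h after PBMT in treated mice. Sedentary and fatigued mice were sequenced as 2 separate projects, so that exercise state and project cannot be told apart. Sedentary mice had 43271093 to 52775844 counts each, and fatigued mice 53122528 to 68726155.

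Satellite cells are the stem cells of skeletal muscle and lie between the fiber membrane and the basal lamina. In resting muscle they are quiescent and express the paired-box factor Pax7. When they are activated, the basic helix-loop-helix factors Myf5 and Myod1 commit them to the myogenic lineage, Myog drives terminal differentiation, and the membrane protein myomaker, encoded by Mymk, lets the differentiated myoblasts fuse with each other and with fibers. Some of these genes are also transcribed in the nuclei of mature fibers, which supply most of the RNA of a whole muscle.

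Each gene is given by its position in GENCODE M21 on GRCm38. Pax7 lies on chromosome 4 from 139737062 to 139833528, Calcr on chromosome 6 from 3685680 to 3764714, and Cdh15 on chromosome 8 from 122847966 to 122867397. Eya1 spans 14168954 to 14310235 of chromosome 1, and Myog spans 134289989 to 134292548 of the same chromosome. Myf5 (107482908 to 107486134) and Myf6 (107492853 to 107494737) are neighbours on the minus strand of chromosome 10 with 6719 bp between them. Myod1 lies on chromosome 7 from 46376474 to 46379099, and Mymk on chromosome 2 from 27061636 to 27072179. No exon of a member overlapped an exon of another annotated gene. The span of Cdh15 lies within that of the gene model Gm20388 on the same strand.

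All 9 genes were detected, but at very different levels. Expression is given as CPM, the count scaled to the TMM-adjusted library size of the mouse, and genes are compared with each other as CPM per kb of merged exons. Myf6 stood highest with a mean over the 4 groups of 81.3 CPM per kb, and it was above Myod1 in 24 of 24 mice. Myod1 followed at 7.94 CPM per kb, Cdh15 at 5.44, Myog at 3.34 and Eya1 at 3.19. These 4 were not all separated: Myod1 exceeded Cdh15 in 17 of 24 mice, and Myog exceeded Eya1 in 11 of 24. Lower still were Myf5 at 0.504 CPM per kb, Pax7 at 0.279 and Calcr at 0.0688, so that the satellite cell genes Pax7 and Calcr stood at the lower end and Cdh15 near the upper end. Mymk, at 0.325 CPM per kb, was above Pax7 in 6 of 24 mice only, its mean being raised by a few fatigued mice.

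The first question was whether PBMT alone changed these genes in resting muscle. None of the 8 members tested in the sedentary project was called at an adjusted p under 0.05 (edgeR quasi-likelihood test, Benjamini-Hochberg adjustment over 14177 genes), against 4 genes or 0.0282% over the whole table. DESeq2 and limma voom likewise called 0 members. Pax7 and Eya1 had an unadjusted edgeR p under 0.05, both with higher values after PBMT, that is 2 of 8 members against 7.63% of all genes tested, counted in either direction. In 0 of the 9 members were the 6 PBMT mice separate from the 6 controls, against 0.48% of genes. The median log2 fold change was 0.037 over the 8 members and -0.0019 over the whole table.

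In fatigued muscle the question was whether PBMT given a day before the run altered the same genes. Mice ran until exhaustion, the authors report longer runs after PBMT, and run times per mouse are not in the labels, so PBMT and run duration cannot be told apart here. All 9 were tested, 0 were called by edgeR and 0 had an unadjusted p under 0.05. For the table as a whole, with 14574 genes tested, the shares were 0.0% at the adjusted threshold, 1.58% at the unadjusted threshold and 0.0274% with groups that did not overlap, and 0 members had separate groups. DESeq2 and limma voom called 0 members here as well. The median log2 fold change of the members was -0.025, beside 0.0041 over all genes. A fit to all 24 mice tested the difference between the PBMT effects of the 2 projects and called 0 of 9 members, against 0.00662% of 15108 genes, with Pax7 alone at an unadjusted p under 0.05 and 0 members called by DESeq2 or limma voom.

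**Figure D1:**
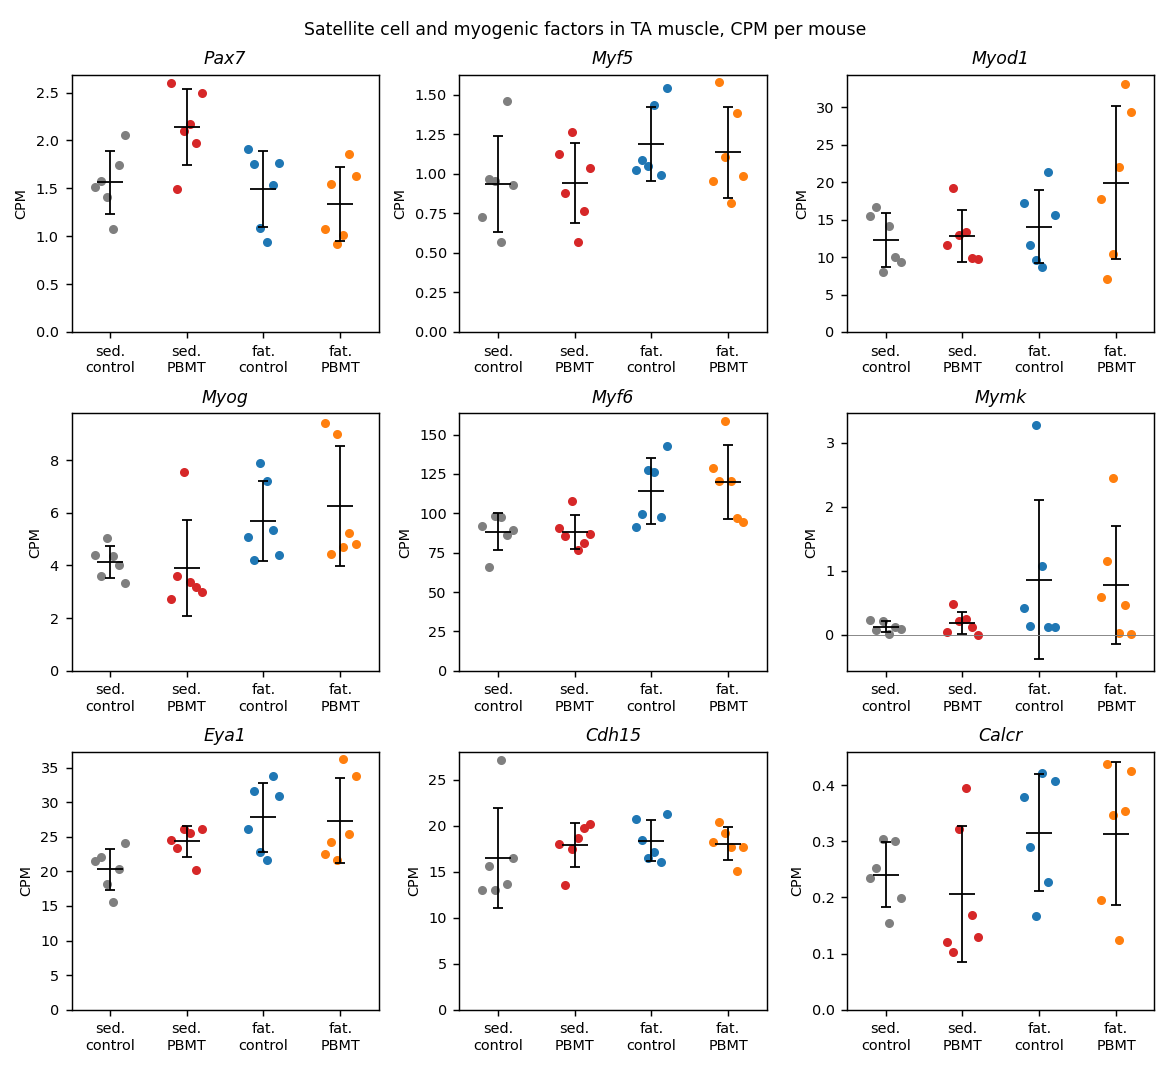
CPM of each member in each of 24 mice, by group (sed., sedentary; fat., fatigued); points are mice, horizontal bars are group means and error bars are SD (n = 6). Pax7 lies highest in sedentary PBMT mice with a mean of 2.14 CPM, and Mymk exceeds 1 CPM in fatigued mice only.

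Pax7, which maintains the satellite cell pool, was expressed at 1.08 to 2.05 CPM in sedentary controls (median 1.54) and at 1.49 to 2.60 CPM after PBMT (median 2.14). The treated mice were mostly the higher ones, 4 of 6 lying above the highest control, but the groups overlapped. The log2 fold change was 0.46 (SE 0.177, edgeR adjusted p = 0.598, unadjusted under 0.05), and leaving out single mice gave 0.37 to 0.55. In fatigued muscle Pax7 ran from 0.944 to 1.91 CPM in controls (median 1.64) and from 0.918 to 1.86 CPM after PBMT (median 1.31). Only 1 of 6 treated mice was above the control median, and the log2 fold change was -0.16 (SE 0.231, edgeR adjusted p = 1.00), with -0.28 to -0.071 when single mice were left out. The PBMT log2 fold change of fatigued minus that of sedentary muscle was -0.61 for Pax7 (SE 0.290), which did not pass adjustment (edgeR adjusted p = 0.946). In whole muscle, fewer satellite cells and less Pax7 RNA in each of them cannot be told apart.

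Calcr, the calcitonin receptor that keeps satellite cells quiescent, was close to the detection limit with 5 to 29 counts per mouse. Its range was 0.154 to 0.303 CPM in sedentary controls (median 0.243) and 0.102 to 0.394 CPM after PBMT (median 0.149). Treated mice lay on both sides of the controls, 2 above the highest and 3 below the lowest. Fatigued controls had 0.168 to 0.421 CPM (median 0.334) and fatigued PBMT mice 0.124 to 0.438 CPM (median 0.350), with 2 treated mice above and 1 below the control range. The log2 fold change of Calcr was -0.22 (SE 0.373, edgeR adjusted p = 0.880) in sedentary and 0.0014 (SE 0.331, edgeR adjusted p = 1.00) in fatigued muscle. Leaving out single mice gave -0.52 to -0.081 and -0.13 to 0.16, so neither value was stable.

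Cdh15 encodes M-cadherin, an adhesion molecule at the contact between satellite cell and fiber. It was expressed at 13.0 to 27.2 CPM in sedentary controls (median 14.6) and at 13.5 to 20.1 CPM after PBMT (median 18.3). The top value belonged to control replicate 4, which stood far above the other 5 controls, and 5 of 6 treated mice were above the control median. This mouse also had the highest fast fiber sum of the controls (219173 CPM, the others 143877 to 163571 CPM) and their lowest Pax7, Myf5, Eya1, Mymk and Calcr. Its log2 fold change was 0.13 (SE 0.157, edgeR adjusted p = 0.824), and leaving out single mice gave 0.071 to 0.32. In fatigued muscle Cdh15 was the steadiest member, at 16.0 to 21.3 CPM in controls (median 17.8) and 15.0 to 20.4 CPM after PBMT (median 18.0). There the groups lay on top of each other, with a log2 fold change of -0.025 (SE 0.0886, edgeR adjusted p = 1.00).

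Eya1 is a phosphatase and co-activator that works with sine oculis homeobox factors upstream of the myogenic regulators. Sedentary controls had 15.6 to 24.1 CPM (median 20.9) and PBMT mice 20.2 to 26.2 CPM (median 25.03). As for Pax7, 4 of 6 treated mice lay above every control and 5 above the control median. The log2 fold change was 0.27 (SE 0.102, edgeR adjusted p = 0.598, unadjusted under 0.05), with 0.197 to 0.317 when single mice were left out. Fatigued controls had 21.6 to 33.8 CPM (median 28.5) and fatigued PBMT mice 21.7 to 36.2 CPM (median 24.8). In this project Eya1 was spread widely within both groups, and the log2 fold change was -0.026 (SE 0.150, edgeR adjusted p = 1.00). The effects in the 2 projects differed by -0.29 (SE 0.184, edgeR adjusted p = 0.946).

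Of the commitment factors, Myf5 had much the same range in both sedentary groups, 0.571 to 1.46 CPM in controls (median 0.940) and 0.571 to 1.27 CPM after PBMT (median 0.957). Fatigued mice had 0.995 to 1.54 CPM without PBMT (median 1.07) and 0.814 to 1.58 CPM with it (median 1.05). No separation was seen in either project, and the log2 fold changes were 0.011 (SE 0.246, edgeR adjusted p = 0.991) and -0.061 (SE 0.200, edgeR adjusted p = 1.00).

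Myod1, the other commitment factor, ran from 8.04 to 16.6 CPM in sedentary controls (median 12.1) and from 9.79 to 19.2 CPM after PBMT (median 12.3). In fatigued controls its range was 8.73 to 21.3 CPM (median 13.7), and in fatigued PBMT mice 7.13 to 33.1 CPM (median 19.9). The fatigued PBMT group was the most dispersed of the 4: replicates 4, 5 and 6 had 22.1, 33.1 and 29.4 CPM and lay above every fatigued control, whereas replicate 2 lay below all of them. Replicate 5 also had the highest summed fibroadipogenic (2272 CPM), tenocyte (818 CPM) and macrophage (136 CPM) markers of the 24 mice, and their part in the result was not tested. The log2 fold change was 0.063 (SE 0.194, edgeR adjusted p = 0.943) in sedentary muscle. In fatigued muscle it was 0.51 (SE 0.363, edgeR adjusted p = 1.00), the largest of any member there, and leaving out single mice gave 0.30 to 0.68.

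Myog, the differentiation factor, was expressed at 3.33 to 5.03 CPM in sedentary controls (median 4.19) and at 2.72 to 7.55 CPM after PBMT (median 3.27). Of the 6 treated mice 5 were below the control median, and replicate 3, with the highest value, was the exception. The log2 fold change was -0.076 (SE 0.214, edgeR adjusted p = 0.936), and it was -0.38 without replicate 3. Fatigued controls had 4.21 to 7.88 CPM (median 5.21) and fatigued PBMT mice 4.43 to 9.40 CPM (median 5.01). Each of these groups held 2 mice above 7 CPM and 4 mice below 6 CPM, and the log2 fold change was 0.14 (SE 0.229, edgeR adjusted p = 1.00), with -0.015 to 0.25 when single mice were left out.

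Myf6, also called Mrf4, is the member of the family most associated with mature fibers. It ran from 66.0 to 98.0 CPM in sedentary controls (median 90.6) and from 76.6 to 108 CPM after PBMT (median 86.3), and from 91.0 to 143 CPM in fatigued controls (median 113) and 94.5 to 159 CPM after PBMT (median 121). Treated and control mice overlapped almost fully in both projects. The log2 fold changes with PBMT were 0.0060 (SE 0.0966, edgeR adjusted p = 0.988) in sedentary and 0.074 (SE 0.139, edgeR adjusted p = 1.00) in fatigued muscle.

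Mymk was the most variable member. In sedentary muscle it had 1 to 11 counts per control mouse and 0 to 24 counts per PBMT mouse, too few for the filter, and the mean difference of 0.0590 CPM was not significant (exact permutation test, p = 0.537, n = 6 per group). In fatigued controls it ran from 0.119 to 3.28 CPM (median 0.284), or 7 to 215 counts, and in fatigued PBMT mice from 0.0147 to 2.46 CPM (median 0.523), or 1 to 142 counts. High and low mice were found in both groups, control replicates 3 and 4 and PBMT replicates 2 and 3 being those above 1 CPM. The PBMT log2 fold change in fatigued muscle was -0.15 with an SE of 1.04 (edgeR adjusted p = 1.00), and single mice moved it between -0.95 and 1.04.

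Fatigued and sedentary mice were compared next, without PBMT and after PBMT, with the limit that each comparison is also one of project. Without PBMT, 2 of 9 members were called, both higher in fatigued muscle, against 18.6% of 15108 genes called in either direction. After PBMT 3 of 9 were called, 2 higher and 1 lower, against 26.8% of genes, so that neither share stood far from that of the table. Of the 9 log2 fold changes 8 were positive in either comparison, with medians of 0.37 and 0.44 beside -0.012 and 0.0021 over all genes. These 2 comparisons share no mice with each other, but each shares its mice with the PBMT comparisons above, and 0 members had separate groups in either, against 7.7% of genes without and 11.2% after PBMT.

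Myf6 was the member called both times. It was higher in fatigued muscle by 0.37 on the log2 scale without PBMT (SE 0.125, edgeR adjusted p = 0.0389) and by 0.44 after PBMT (SE 0.125, edgeR adjusted p = 0.00995), and 6 of 6 fatigued mice lay above the sedentary median each time. The call without PBMT was lost with no filter (adjusted p = 0.0514). It was also lost on leaving out fatigued control replicate 3 (adjusted p = 0.0728), 4 (0.0773) or 6 (0.103) or sedentary control replicate 1 (0.0523), 2 (0.0978), 5 (0.0705) or 6 (0.0591), with log2 fold changes of 0.30 to 0.38. Eya1 was called without PBMT, with a log2 fold change of 0.45 (SE 0.131, edgeR adjusted p = 0.0166) and in 24 of 24 fits that each lacked a mouse. Fits that lacked a PBMT mouse, which is in neither group compared, could change only the filter, the scaling and the estimate of spread. After PBMT the log2 fold change of Eya1 was 0.17 (SE 0.130, edgeR adjusted p = 0.363), and 0.078 to 0.23 when single mice were left out. The difference between the values without and after PBMT was the one not called above.

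Pax7 and Myog were called after PBMT, in opposite directions. Pax7 was lower in fatigued than in sedentary PBMT mice by a log2 fold change of -0.67 (SE 0.205, edgeR adjusted p = 0.0162), and 0 of 6 fatigued mice lay above the sedentary median. The Pax7 call held in 24 of 24 fits that each lacked a mouse. Those that lacked a control mouse left both groups compared whole. Without PBMT the Pax7 difference was -0.060 (SE 0.206, edgeR adjusted p = 0.872). Myog was higher by 0.68 (SE 0.236, edgeR adjusted p = 0.0340), and 6 of 6 fatigued PBMT mice lay above the sedentary median. Its call was lost on leaving out fatigued PBMT replicate 1 (adjusted p = 0.0981) or 3 (0.0945) or sedentary PBMT replicate 1 (0.0825), 2 (0.0579), 4 (0.0666), 5 (0.0709) or 6 (0.0718), with log2 fold changes of 0.53 to 0.65. Without sedentary PBMT replicate 3 the log2 fold change was 0.98 (adjusted p = 0.00121). The call was also lost with no filter (adjusted p = 0.0740) and with only the 12 mice compared (adjusted p = 0.0853). Without PBMT, the log2 fold change of Myog was 0.46 and not called (SE 0.235, edgeR adjusted p = 0.176). The difference between the values after and without PBMT was 0.22 for Myog (SE 0.332, edgeR adjusted p = 0.949). It was not called, and neither was that for Pax7, given above.

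For Mymk, Cdh15 and Myod1 a call depended on single mice or on the tool. Mymk had the largest differences, 2.72 without PBMT (SE 1.01, edgeR adjusted p = 0.0641) and 2.05 after PBMT (SE 0.968, edgeR adjusted p = 0.124). Neither was called, although the difference without PBMT passed in DESeq2 (adjusted p = 0.0356) and when fatigued PBMT replicate 6 was left out (log2 fold change 2.73, adjusted p = 0.0480). Without fatigued control replicate 3 that difference was 1.55 (adjusted p = 0.279), and without fatigued PBMT replicate 3 the difference after PBMT was 1.25 (adjusted p = 0.369). Cdh15 differed by 0.15 without PBMT (SE 0.140, edgeR adjusted p = 0.473), and by 0.35 (adjusted p = 0.0127) without sedentary control replicate 4 and 0.37 (adjusted p = 0.00325) in limma voom with sample weights. After PBMT Cdh15 differed by 0.0075 (SE 0.139, edgeR adjusted p = 0.975), and by -0.068 to 0.051 when single mice were left out. Myod1 differed by 0.64 after PBMT (SE 0.311, edgeR adjusted p = 0.136), and by 0.81 (adjusted p = 0.0330) without fatigued PBMT replicate 2. Without PBMT the Myod1 difference was 0.19 (SE 0.311, edgeR adjusted p = 0.715), and 0.033 to 0.30 when single mice were left out. Myf5 (0.34 and 0.28) and Calcr (0.39 and 0.61) had positive log2 fold changes that were not called in either comparison.

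**Figure D2:**
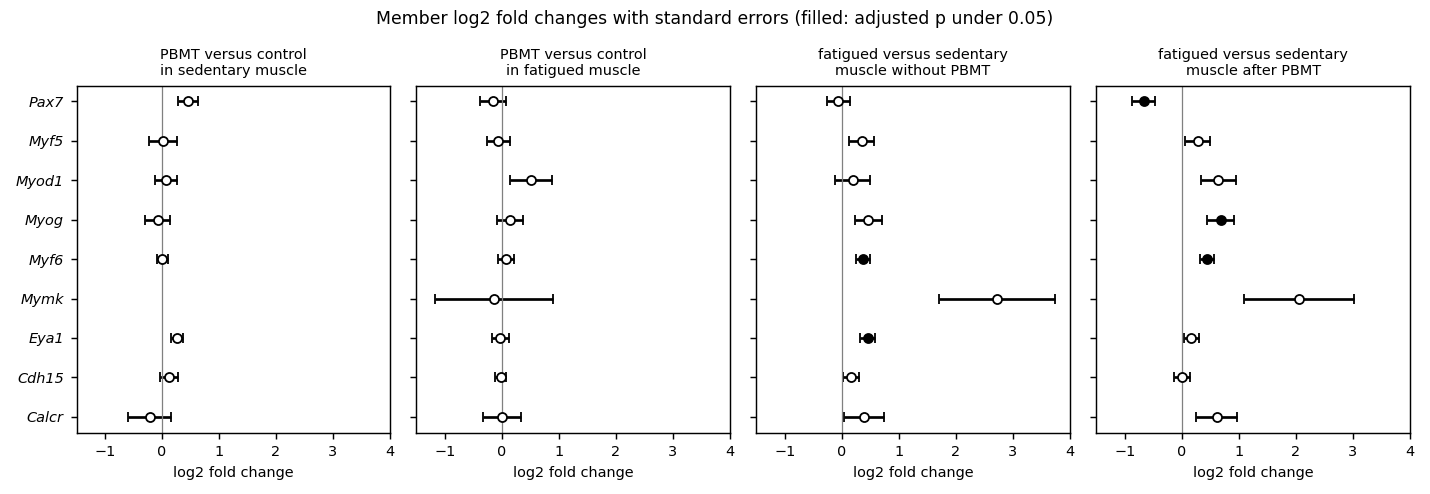
Log2 fold changes of the members in the comparisons of PBMT with control and of fatigued with sedentary muscle; bars are standard errors, and filled points have an edgeR adjusted p under 0.05. Filled points occur only between the projects, where Myf6 is filled in both panels; Mymk was not tested in the sedentary project.

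Members were next compared with each other across mice of the same group, as correlations of log2 CPM after removal of the group means. Of 36 pairs, 8 had an unadjusted p under 0.05 over 24 mice and 0 passed adjustment over the 36 (100000 permutations within groups). By r the smallest p belonged to Mymk and Eya1, and by rho to Pax7 and Myog. For Mymk and Eya1 the values were r = -0.663 (permutation p = 0.00332, adjusted p = 0.0984) and rho = -0.646 (permutation p = 0.00324, adjusted p = 0.0583), and r = -0.584 without the 2 mice farthest out in Mymk. In the fatigued project r was -0.931 (permutation p = 3.7e-04, adjusted p = 0.0133), rho was -0.909 (permutation p = 0.00106, adjusted p = 0.0382) and r without the farthest 2 mice was -0.934, n = 12. In the sedentary project r was 0.0667 (permutation p = 0.828, adjusted p = 0.953) and rho was -0.147, at 0 to 24 counts of Mymk. The 4 fatigued mice above 1 CPM of Mymk had 21.6 to 24.2 CPM of Eya1, whereas the 5 with the least Mymk, at most 0.145 CPM, had 30.8 to 36.2 CPM.

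Myog followed Mymk in the opposite sense, with r = 0.577 over 24 mice (permutation p = 0.0120, adjusted p = 0.108; rho = 0.586, permutation p = 0.00990, adjusted p = 0.0891). Here r was 0.678 without the farthest 2 mice, 0.689 in fatigued and 0.410 in sedentary mice, and rho in fatigued mice was 0.490 (permutation p = 0.142). Fatigued control replicates 3 and 4 and fatigued PBMT replicate 3 were high in both genes. Fatigued PBMT replicate 1 had the highest Myog (9.40 CPM) with 0.585 CPM of Mymk, and replicate 2 the lowest Myog of its group (4.43 CPM) with 1.16 CPM of Mymk. Pax7 and Myog tended to be high in different mice, with r = -0.572 (permutation p = 0.00817, adjusted p = 0.0984) and rho = -0.649 (permutation p = 0.00197, adjusted p = 0.0583), and r = -0.562 without the farthest 2 mice. Within projects r was -0.742 in fatigued and -0.328 in sedentary mice, while rho was -0.476 (permutation p = 0.140) and -0.699 (permutation p = 0.0140), so the measures ranked the projects differently. Myog and Myf6 had r = 0.561 (permutation p = 0.00820, adjusted p = 0.0984; rho = 0.443, permutation p = 0.0460, adjusted p = 0.207), with 0.498 without the farthest 2 mice, 0.531 in fatigued and 0.619 in sedentary mice. Within the sedentary project a single pair passed, Mymk and Cdh15 (r = -0.703, permutation p = 6.6e-04, adjusted p = 0.0238; rho = -0.741, permutation p = 0.00861, adjusted p = 0.243). That pair rests on Mymk counts of 24 or fewer, and its r was -0.709 without the farthest 2 mice, -0.00792 in fatigued mice and -0.312 over 24 mice.

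**Figure D3:**
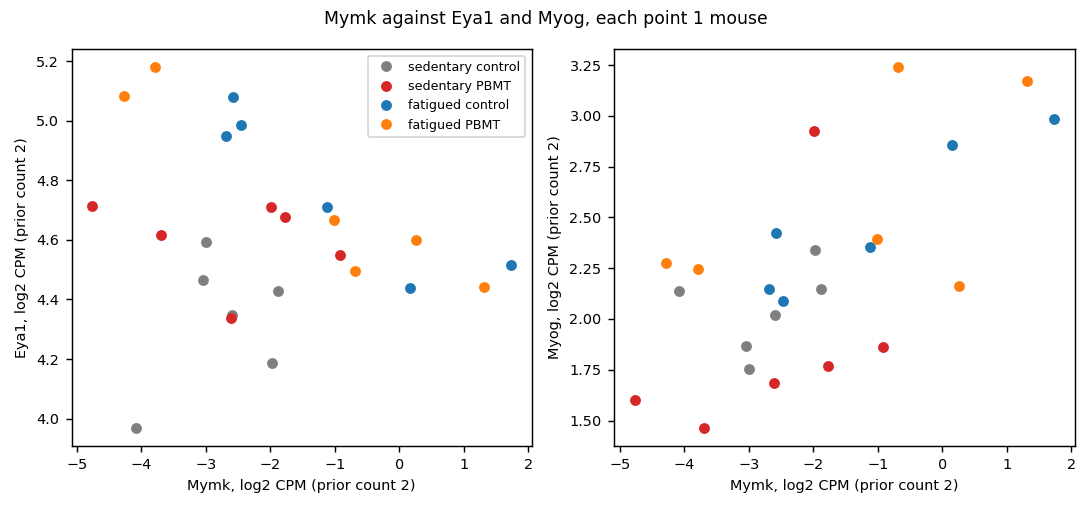
Mymk against Eya1 (left) and Myog (right), log2 CPM with a prior count of 2, each point a mouse and each colour a group. Among the 12 fatigued mice Eya1 tends to be low where Mymk is high (r = -0.931). Among the 12 sedentary mice r is 0.0667.

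For each member tested in both projects, the 3 genes most like it across 24 mice were taken from 11721 genes with a mean of at least 1 CPM, by Pearson r after removal of group means. This is a description of the highest values among many, without a test. Pax7 was nearest to Ppl (r = 0.847), Pot1b (0.827) and Cth (0.818), and Myf5 to Zfp65 (r = 0.768), Agfg1 (0.704) and Ormdl1 (0.679). The nearest genes to Myod1 were Trib2 (r = 0.846), Mtss1 (0.825) and the homeobox gene Meox2 (0.822), a likeness stronger in the fatigued project (r = 0.944, 0.917 and 0.920) than in the sedentary one (r = 0.460, 0.415 and 0.443). Myog was nearest to Msrb1 (r = 0.822), Rpl13a (0.800) and Eif5a (0.714), Myf6 to Sh2b2 (r = 0.810), Tgif1 (0.760) and Relt (0.751), and Eya1 to Slc25a51 (r = 0.802), Fnip1 (0.797) and Atp6v1a (0.796). Cdh15 was nearest to Gcn1l1 (r = 0.930), Hgs (0.920) and the muscle chaperone Unc45b (0.916). Those 3 values were 0.827, 0.799 and 0.820 without the 2 mice farthest from the median, and 0.702, 0.640 and 0.691 in fatigued mice. Calcr had no close neighbour, its best being Itprip (r = 0.566), Phf14 (0.561) and Rpl37rt (0.556). Rpl13a and Rpl37rt have near-identical copies elsewhere in the genome, so their counts are uncertain.

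The genes around the members in the myogenic pathway were read from lists by role. Among 16 upstream regulators (mostly homeobox genes and their cofactors) 0 were called with PBMT in either project. The smallest p in sedentary muscle belonged to Meox2 (log2 fold change 0.29, SE 0.144) and Eya4 (0.19, SE 0.128), and in fatigued muscle to Dach1 (-0.64, SE 0.279) and Eya4 (0.33, SE 0.158). E proteins, the dimer partners of the myogenic factors, and the Id, Snai and Twist proteins that oppose them gave 0 calls among 13 genes with PBMT. Here Id3 (log2 fold change -0.41, SE 0.140) and Id1 (-0.52, SE 0.221) had the smallest p in sedentary muscle, both unadjusted under 0.05, and Twist2 (0.62, SE 0.401) and Id3 (0.24, SE 0.174) in fatigued muscle. Between the projects, 2 of the 16 upstream regulators were called higher and 3 lower in fatigued muscle without PBMT, among them Six4 (-0.84, SE 0.121), and 3 higher and 4 lower after PBMT, with Six4 (-0.99, SE 0.121) and Dach1 (-1.44, SE 0.241) first. Of all 15108 genes tested, 1375 were called higher and 1434 lower without PBMT, and 2135 higher and 1916 lower after it. Of the 13 partners and inhibitors 3 were called higher without PBMT, among them Id2 (0.89, SE 0.304) and Snai1 (0.89, SE 0.314), and 5 after PBMT, among them Id3 (0.88, SE 0.169) and Snai1 (1.36, SE 0.314), and 0 were called lower. These counts stand beside 1375 and 2135 of 15108 genes called higher in the table.

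Genes of satellite cell quiescence and niche numbered 26, all tested, with 0 called by PBMT. In sedentary muscle the Notch effector Heyl (log2 fold change 0.62, SE 0.163, edgeR adjusted p = 0.337) and the niche proteoglycan gene Sdc4 (-0.33, SE 0.105, edgeR adjusted p = 0.433) came first, and in fatigued muscle the tetraspanin gene Cd82 (0.44, SE 0.198) and the growth factor receptor gene Met (0.16, SE 0.0995). Of this list 8 genes were called higher in fatigued muscle without PBMT and 8 after PBMT, 6 of them in both, and 0 lower, against 1375 and 2135 of 15108 genes called higher in the table. They were led by Sdc4 (1.00 and 1.63) and Cd82 (0.84 and 1.28). The median log2 fold changes of the list were 0.28 and 0.25, beside -0.012 and 0.0021 over all genes.

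Of 16 growth signals acting on satellite cells 14 were tested and 0 called with PBMT, although 3 had an unadjusted p under 0.05 in sedentary muscle, all higher, against 472 of 14177 genes higher at that threshold, with Gdf11 (log2 fold change 0.52, SE 0.126, edgeR adjusted p = 0.268) and the Notch ligand Jag1 (0.46, SE 0.119, edgeR adjusted p = 0.318) first. Gdf11 (0.24, SE 0.171) and Notch2 (0.19, SE 0.145) came first in fatigued muscle. Fusion genes besides Mymk gave 0 calls among 14 tested, with Cdon (0.29, SE 0.0847) and Jam3 (-0.14, SE 0.0949) first in sedentary and Dock5 (0.66, SE 0.247) and Tanc1 (0.089, SE 0.0731) in fatigued muscle. Between the projects without PBMT, 3 growth signals were called higher, including Jag1 (0.89, SE 0.113) and Gdf11 (0.57, SE 0.155), and after PBMT 4 were higher, including Notch2 (0.53, SE 0.132) and Col5a1 (1.04, SE 0.263), and 1 lower. Fusion genes had 6 called higher and 1 lower without PBMT and 7 higher and 0 lower after PBMT, of 14 tested, against 1375 and 2135 of 15108 genes called higher in the table, with Ehd2 (0.63 and 0.65) and Tanc1 (0.44 and 0.48) first both times.

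Genes that respond to damage, denervation and growth of fibers were likewise not called with PBMT. The first list joins developmental contractile genes with genes that respond to damage or stress of fibers, such as Ankrd1 and Xirp1, and 8 were tested. In it the smallest p belonged to Ankrd1 (log2 fold change 0.48, SE 0.278) and Tnnt2 (-0.23, SE 0.178) in sedentary and to Xirp1 (0.25, SE 0.341) and Myh8 (0.059, SE 0.0966) in fatigued muscle. Synapse and denervation genes had Musk (0.31, SE 0.185) and Hdac9 (0.26, SE 0.173) first in sedentary muscle. In fatigued muscle 4 of 12 such genes had an unadjusted p under 0.05, all higher, against 157 of 14574 genes higher at that threshold, led by Runx1 (0.80, SE 0.241) and Musk (0.66, SE 0.208) at an edgeR adjusted p of 1.00. Between the projects Xirp1 (3.22 and 3.26), Ankrd1 (3.70 and 3.47), Trim63 (1.595 and 2.17) and Runx1 (1.86 and 2.48) were called higher in fatigued muscle without and after PBMT. They were among 3 of 8 genes of the first list and 4 of 12 synapse and denervation genes called higher each time. In the first list 0 genes and in the second 1 gene were called lower. Over the table of 15108 genes, 1375 were called higher and 1434 lower without PBMT, and 2135 higher and 1916 lower after it.

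Of 19 proliferation genes 13 were tested in each project. Mcm5 (log2 fold change -0.47, SE 0.254) and Top2a (-0.78, SE 0.604) came first in sedentary and Mki67 (1.24, SE 0.860) and Mcm5 (0.42, SE 0.296) in fatigued muscle, with 0 called. Between the projects 2 of 14 proliferation genes tested were called higher each time, against 1375 and 2135 of 15108 genes in the table. These were Mcm3 (0.64) and Pcna (0.26) without PBMT and Mcm3 (0.50) and Mcm6 (0.57) after it. Fiber type genes gave 0 calls with PBMT among 11 genes of fast fibers and 10 of slow and type IIa fibers, the latter including Myh2, the fast type IIa myosin. Their first genes were Tnni2 (-0.18, SE 0.156) and Myh4 (0.22, SE 0.199), and Myh2 (-0.32, SE 0.221) and Atp2a2 (0.12, SE 0.0869), in sedentary muscle, and Actn3 (-0.078, SE 0.0812) and Atp2a1 (-0.084, SE 0.0973), and Myl3 (0.58, SE 0.198) and Myoz2 (0.23, SE 0.189), in fatigued muscle. In fatigued relative to sedentary muscle Myh4 was higher (0.86 without and 0.65 after PBMT), as were Tnnt3 (0.37 and 0.26) and Atp2a2 (0.53 and 0.53), while Myl3 was lower without PBMT (-0.75).

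Markers of other cells of the tissue moved with some of these comparisons. The 7 macrophage markers summed to 31.9 to 75.0 CPM in sedentary controls and 21.0 to 42.9 CPM after PBMT, Mrc1 being the most abundant. With 0 called, 4 of them (C1qb, Cd163, C1qa and Csf1r) had an unadjusted edgeR p under 0.05, all lower, against 610 of 14177 genes lower at that threshold. In fatigued mice their sum was 53.6 to 93.3 CPM in controls and 38.5 to 136 CPM after PBMT, and after PBMT 7 of 7 were called higher than in sedentary muscle, against 1 of 7 without PBMT. For this and the other marker lists the base is the table of 15108 genes. There 1375 were called higher and 1434 lower without PBMT, and 2135 higher and 1916 lower after it. The 5 neutrophil markers, S100a9 the most abundant, summed to 20.5 to 46.7 CPM in sedentary controls and 1.10 to 50.3 CPM after PBMT, but to 0.202 to 2.51 CPM and 0.426 to 1.89 CPM in the fatigued groups. All 4 tested were called lower in the fatigued project both without and after PBMT. The macrophage sum had a higher mean and the neutrophil sum a lower mean in fatigued muscle both without and after PBMT. Pax7 and Myog were called only after PBMT, Eya1 only without it and Myf6 both times. The part of these cells in those calls was not tested.

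Fibroadipogenic progenitor markers, led by Col1a1, summed to 499 to 700 CPM and 412 to 717 CPM in the sedentary groups and to 576 to 1156 CPM and 624 to 2272 CPM in the fatigued groups, and 1 of 8 was called higher without and 5 after PBMT between the projects. For further marker lists, the group means of the summed CPM lay between 235 and 282 CPM for endothelial markers (Cdh5 the most abundant), 567 and 617 CPM for mural markers (Rgs5), 153 and 363 CPM for tenocyte markers (Fmod), 3.43 and 8.90 CPM for keratinocyte markers (Krt10; the highest mean rests mainly on sedentary PBMT replicate 4 at 29.2 CPM, the median of that group being 3.59 CPM), 8.69 and 16.2 CPM for adipocyte markers (Adipoq) and 86.4 and 102 CPM for erythrocyte markers (Hbb-bs). Tenocyte sums were 153 and 157 CPM in the sedentary and 307 and 363 CPM in the fatigued groups, with 1 of 5 markers called higher without and 2 after PBMT. Mural markers had 2 of 5 called higher both times. Without PBMT 0 endothelial, keratinocyte, adipocyte or erythrocyte markers were called. After PBMT 1 endothelial marker was called higher and 1 lower, 1 adipocyte marker higher and 1 keratinocyte marker lower. No marker of any list was at 0 in all 24 mice. Fast fiber genes, with Myh4 the most abundant, summed to means of 165366 CPM in sedentary controls and 171157 CPM after PBMT, and of 215196 and 209842 CPM in the fatigued groups. These sums moved with the Myf6 difference between the projects, and their part in it was not tested. The genes of slow and type IIa fibers summed to 775 to 1012 CPM, most of it the type IIa myosin gene Myh2 (599 to 813 CPM).

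Since Pax7 and Myog were called in opposite directions between fatigued and sedentary PBMT mice, the 250 bases before their RefSeq starts are shown. These starts lie 560 bases (Pax7) and 15 bases (Myog) downstream of the GENCODE gene starts given above. Promoter sequences of RefSeq on GRCm38.p6 were found for 5 of the 9 members (Pax7, Myf5, Myog, Cdh15 and Calcr), with 2 starts for Calcr, and not for Myod1, Myf6, Mymk and Eya1. Capitals mark the E-box letters CANNTG, which read the same on both strands and are bound by dimers of the myogenic factors. The Myog window lies at chr1:134289754-134290003 on the plus strand and the Pax7 window at chr4:139832969-139833218 on the minus strand, both written 5′ to 3′.
Myog: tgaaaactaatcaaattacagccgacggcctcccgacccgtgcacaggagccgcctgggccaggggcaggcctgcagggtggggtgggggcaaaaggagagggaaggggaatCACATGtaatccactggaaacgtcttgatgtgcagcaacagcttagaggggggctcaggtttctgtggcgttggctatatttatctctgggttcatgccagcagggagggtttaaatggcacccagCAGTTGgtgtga
Pax7: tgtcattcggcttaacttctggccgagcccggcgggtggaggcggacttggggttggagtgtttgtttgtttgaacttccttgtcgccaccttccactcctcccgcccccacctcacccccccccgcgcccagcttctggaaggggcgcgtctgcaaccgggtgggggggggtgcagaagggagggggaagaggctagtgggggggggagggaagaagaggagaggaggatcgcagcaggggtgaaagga
The Myog window holds 2 E-boxes and the Pax7 window 0, and 66.2% of 32851 promoter windows of the same length hold at least 1. Among the other members, Cdh15 had 3, Myf5 had 0, and the Calcr starts had 1 and 0. A match is a description, not a site.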

How the data were processed

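As deposited, the values were integer read counts per gene for single mice, neither normalized nor pooled. The submitters' processing notes name GRCm38, Trimmomatic, STAR 2.7.1a, Picard 2.20.4, StringTie 2.0.4, featureCounts 1.6.0 and HTSeq without their roles, and the strand setting is not given in the sources used here. Of 55487 identifiers 55227 matched GENCODE M21. Genes were filtered with filterByExpr (minimum count 10), scaled by TMM and tested with the robust quasi-likelihood test of edgeR 4.0.16 in R 4.3.3; p-values were adjusted by Benjamini-Hochberg within each comparison. PBMT was tested within each project, and the other comparisons used all 24 mice. A standard error is the log2 fold change over the square root of its F value. DESeq2 1.42.0, limma 3.58.1 voom, other filters and scalings, and fits without single mice were run as alternatives. The members and gene lists were chosen with earlier results of these data known. Named were all members, up to 2 genes per list and comparison with the smallest p (between projects only called genes), the most abundant marker of each marker list given and the 3 genes most like each member. Macrophage markers other than Mrc1 were named after their values were seen.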

Additional observations from a re-analysis of the deposited data

Results flagged for a closer look

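In 4 of 36 sets of 6 mice (9 members in 4 groups), 1 mouse stood apart by a gap in log2 CPM to its neighbour of more than 0.625 of the range of the group; chance gives about 1 in 20. All 4 sets were sedentary. Myog in PBMT replicate 3 was the highest at 7.55 CPM, with a gap of 0.729 of the range. Myf6 in control replicate 2 was the lowest at 66.0 CPM (0.680 of the range). Cdh15 was highest in control replicate 4 at 27.2 CPM (0.680 of the range) and lowest in PBMT replicate 2 at 13.5 CPM (0.640 of the range).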

How the results depend on the processing

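No member's log2 fold change that was called turned its sign in any of the 1141 alternative values computed, of which 1060 kept their direction and side of the threshold, 59 changed sign without a call on either side, 17 lost a call (Myf6 without PBMT and Myog after PBMT) and 5 gained one (Mymk, Cdh15 and Myod1 between projects). The 72 levels by other scalings moved by less than 1 SD. Members called with PBMT stayed at 0 in each project and for the difference in each alternative run.

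Between projects without PBMT, 1 member was called with no filter (more genes tested), and 1 to 3 when single mice were left out. The genes called over the whole table moved more. In sedentary muscle the 4 genes became 16 with no filter, 60 with DESeq2, 50 with limma voom, 1 with all 24 mice in 1 model, and 2 to 20 when single mice were left out. In fatigued muscle DESeq2 called 2 genes, and for the difference of PBMT effects 1 to 3 were called without single mice. Without PBMT, limma voom called 4945 genes between projects in place of 2809. The cause was not tested.

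With a replicate block, the replicate number as a term in the model, 11 genes were called in sedentary and 1 in fatigued muscle, and the members called did not change in number. Correlations of the deviations of mice of the same number ran from -0.0715 to 0.0664 in the sedentary and from -0.0846 to 0.325 in the fatigued project, and the own number gave the highest correlation for 1 of 6 numbers in the sedentary and 3 of 6 in the fatigued project. The labels do not say that the numbers pair mice, and a shared session in the fatigued project was not tested. Counts were low for Calcr and sedentary Mymk, with at most 29 and 24 per mouse.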
